A study of Mus musculus with 24 samples.

Results

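The earliest stage of the series, gd10.5, was used to ask what loss of C1qtnf6 does to the mouse maternal-fetal interface (MFI) shortly after the placenta forms. All 3 WT and all 3 C1qtnf6-KO libraries whose labels give gd10.5 were taken, which is 6 of the 24 libraries, and 17480 of the 55401 genes in the deposited table had enough reads to be tested. WT mice were C57BL/6. C1qtnf6-KO mice, homozygous in the study's account of this comparison, were the strain C57BL/6JCya with the allele S-KO-14014. The allele is a deletion made with CRISPR/Cas9 that every cell of the animal carries, so dam and conceptus could both lack the gene. Bulk mRNA was sequenced and counted on genes without normalization. The labels call the tissue MFI, while the study's methods speak of RNA from placentae, and neither names the dam, litter, fetal sex, pooling or sequencing run of a library. P-values here therefore measure the spread between these libraries, which may be technical in part.

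The MFI at this stage is built from maternal and embryonic cells together. Decidual stromal cells, uterine blood vessels and granzyme-rich decidual natural killer (dNK) cells come from the mother, while trophoblast giant cells, spongiotrophoblast, the young labyrinth and the yolk sac come from the conceptus. C1qtnf6 encodes a secreted protein with a globular domain like that of complement C1q, and the study's interest lies in whether it restrains complement and shapes dNK cells. C1qtnf6-KO MFI at gd10.5 differed from WT in 1 gene, C1qtnf6 itself, which is 0.00572% of the genes tested. A differentially expressed gene (DEG) had an adjusted p-value under 0.05 in edgeR's quasi-likelihood test and a log2 fold change beyond 1. The 6 libraries differed from one another widely in genes of yolk sac endoderm and of spongiotrophoblast, and in both the WT and KO libraries overlapped.

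Total counts ran from 20975717 to 34006585 per library, so the limit of detection, taken as 3 counts, lay between 0.0882 and 0.143 counts-per-million (CPM). Reads from the mitochondrial genome were 2.9% to 3.53% of each library. Between replicates of a group the chi-square divided by its degrees of freedom was 31.0 to 169, far over the value of about 1 that counting alone gives, and the pairs with KO replicate 2 had the largest values. On log2 CPM, the closest pair of all was WT replicate 1 with KO replicate 3, at a Pearson r of 0.992 across genes, which are not independent replicates. Markers of decidua, dNK cells and trophoblast were present in every library, and 12 genes of the embryo proper were near absent. Their summed level over all 12 was at most 7.39 CPM, and 3 of them passed the filter.

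C1qtnf6 itself was read first, because it checks the labels. It lies on the minus strand of chromosome 15 at 78523346 to 78531416 of the GRCm38 build, and its level was 169, 173 and 185 CPM in WT replicates 1 to 3 and 1.12, 0.845 and 1.08 CPM in KO replicates 1 to 3. The groups were far apart, and 20 to 28 reads per KO library stood against 3979 to 5799 per WT library. The log2 fold change was -7.42 (95% interval -7.77 to -7.08), which left 0.578% of the WT level, with an adjusted p of 1.31e-05 in edgeR's quasi-likelihood test. An exact two-sided permutation test of 3 against 3 libraries gave 0.1, the smallest p this design allows. The gene Gm49490 overlaps the 5′ end of C1qtnf6 on the other strand from 78531109, and the counting ignored strand, so the reads that remained were not assigned to either gene with certainty.

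No neighbour or relative of C1qtnf6 was a DEG. Of the 9 other genes tested within 200 kb, Sstr3, a somatostatin receptor gene, was the one with an unadjusted p under 0.05, with levels of 0.504, 0.565 and 0.513 CPM in WT and 1.70, 0.633 and 1.70 CPM in KO. Its KO libraries all lay above WT, but KO replicate 2 by little, and the log2 difference of 1.34 (95% interval 0.34 to 2.35) did not pass adjustment. Il2rb, which encodes a shared receptor chain for interleukins 2 and 15, had a log2 difference of -0.16 (95% interval -0.79 to 0.47), and Rac2, a GTPase of blood cells, had -0.12. Of the other C1q-like genes, C1qtnf1 was at 123 to 168 CPM in WT and 116 to 171 CPM in KO, a difference of 0.02 on the log2 scale (95% interval -0.42 to 0.45). C1qtnf2, C1qtnf9 and C1qtnf12 were at 8.90 CPM or less in every library and passed no threshold, nor did the adiponectin receptor genes Adipor1 and Adipor2.

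Prolactin-family hormone genes of trophoblast and decidua and genes of the mitochondrial genome were high at the early interface. Levels that compare genes with each other were computed per length, as TPM, the length-corrected counterpart of CPM, from the counts and gene lengths of the deposited table. By that measure the 15 highest genes held 14% to 18.9% of each library and the 100 highest 32.4% to 36.5%. The 25 prolactin-family genes together held 6.88% to 10.9%, genes of the mitochondrial genome 6.58% to 7.51% and granzymes 1.37% to 2.91%. The mitochondrial share was the higher of the first pair in WT replicate 3 and KO replicate 1. The highest gene was mt-Co1, a subunit of cytochrome oxidase, at 28800 to 34460 TPM, followed by Prl8a2 and Prl2c3. Gpx3, a secreted glutathione peroxidase of decidua, H19, an imprinted noncoding RNA of embryonic tissues, and the translation factor gene Eef1a1 were also among the 15, as was Tpt1-ps3, a processed copy of Tpt1 whose reads may belong to its parent gene.

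The abundant hormone genes were also among the least steady. Prl8a2, the decidual prolactin-related protein, was at 41760, 25300 and 18870 TPM in WT and at 10040, 6699 and 35750 TPM in KO. Its groups overlapped and its levels ran over 6.23-fold, with a log2 difference of -0.76 (95% interval -2.36 to 0.84). Prl3d1, placental lactogen I, was at 6862, 4654 and 5565 TPM in WT and at 10970, 560 and 5958 TPM in KO. The lowest and the highest library were both KO, a 19.6-fold span, and the log2 difference was 0.00 within an interval of 2.06 on either side. Prl3b1, placental lactogen II, ran the other way, at 10450, 10120 and 7893 TPM in WT and at 3741, 19860 and 4348 TPM in KO, so that KO replicate 2 was highest and the other two KO libraries lowest. Giant cells pass from Prl3d1 to Prl3b1 as gestation advances. By contrast mt-Cytb, mt-Nd1 and mt-Co1 kept within 1.2-fold over the 6 libraries.

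Genes of yolk sac endoderm varied widely between libraries. This epithelium makes the serum proteins of the early embryo before the liver does, among them alpha-fetoprotein (Afp), apolipoproteins and fibrinogen. The summed level of the 17 list genes was 5453, 75.7 and 71.3 CPM in WT replicates 1 to 3 and 3292, 1825 and 5384 CPM in KO replicates 1 to 3, a 76.5-fold span. WT replicates 2 and 3 were low in these transcripts, WT replicate 1 and KO replicates 1 and 3 were rich in them, and KO replicate 2 lay between. In bulk libraries, fewer cells of a type and less RNA per cell cannot be told apart.

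Single genes showed the same picture. Afp was at 2492, 7.35 and 10.4 CPM in WT and at 1148, 963 and 2117 CPM in KO. Apob, which carries lipid out of the endoderm, was at 996, 3.27 and 5.41 CPM in WT and at 751, 231 and 1155 CPM in KO. Cubn, the endocytic receptor cubilin at the endoderm surface, was at 328, 3.39 and 4.80 CPM in WT and at 333, 53.5 and 459 CPM in KO. In 16 of the 17 genes, WT replicate 1 and KO replicates 1 and 3 were all above WT replicates 2 and 3, and in 15 KO replicate 2 lay between them. Albumin (Alb) followed neither pattern, at 18.6 CPM in KO replicate 2 and at most 4.07 CPM elsewhere. Trf, which encodes transferrin, followed the first alone, with KO replicate 2 at 225 CPM, above KO replicate 1 at 190 CPM.

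Both libraries that nearly lacked yolk sac transcripts were WT, and the list leaned to KO without any gene passing the test. All 17 genes had a higher KO mean on the log2 scale, with a median difference of 1.01 against 0.01 over all genes tested, yet 0 had an unadjusted p under 0.05, against 0.801% of all genes, and the median 95% interval reached 3.98 to either side. Leaving out WT replicate 1 moved the median to 6.79. The size of the list's difference thus moved with which libraries were compared.

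**Figure D1:**
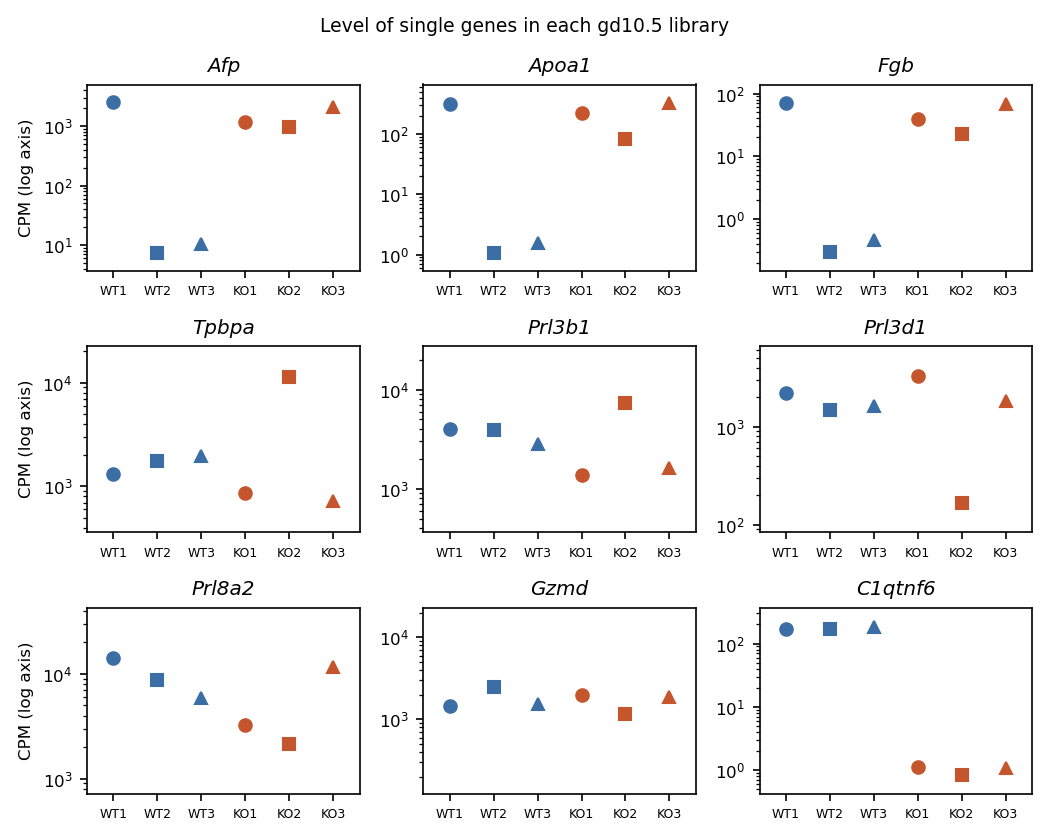
Levels in CPM on a log axis of 9 genes in each of the 6 libraries, with a point per library and colours for WT and KO. Afp, Apoa1 and Fgb are near the floor in WT replicates 2 and 3, KO replicate 2 stands apart in Tpbpa, Prl3b1 and Prl3d1, and C1qtnf6 is the gene in which genotype separates the points widely.

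The promoters of these genes were searched because the genes, Alb apart, varied together over the 6 libraries, and HNF1 and HNF4 are the classical regulators of serum protein genes in endoderm. RefSeq promoter sequence of the GRCm38.p6 build, 250 bases before each start, was found for 15 of the 17 list genes. The HNF1 core letters GTTAAT or GTTAAC, searched on both strands, occurred in 4 of the 15 (26.7%), namely Afp, Alb, Fga and Fgb, against 2876 of 32851 promoters in all (8.75%). A list gene counted if any of its promoters held the letters, while the share in all counts each promoter singly. The promoters printed below are all among the 4 with the letters. The HNF4 site CAAAGTCCA or CAAAGGTCA, also searched on both strands, occurred in 0 of the 15 and in 265 of all promoters (0.807%), which says only that these letters are not in these windows. Capitals mark the HNF1 letters on either strand. The Afp promoter, chr5:90490464-90490713 on the plus strand, holds 2 of them, and the promoters of the fibrinogen chain genes Fga (chr3:83025903-83026152, plus strand) and Fgb (chr3:83049864-83050113, minus strand) hold 1 each.
Afp: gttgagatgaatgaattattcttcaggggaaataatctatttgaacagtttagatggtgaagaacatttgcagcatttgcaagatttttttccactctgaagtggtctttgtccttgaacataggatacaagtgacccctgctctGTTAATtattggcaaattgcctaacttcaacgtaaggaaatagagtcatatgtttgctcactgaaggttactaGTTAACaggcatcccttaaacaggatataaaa
Fga: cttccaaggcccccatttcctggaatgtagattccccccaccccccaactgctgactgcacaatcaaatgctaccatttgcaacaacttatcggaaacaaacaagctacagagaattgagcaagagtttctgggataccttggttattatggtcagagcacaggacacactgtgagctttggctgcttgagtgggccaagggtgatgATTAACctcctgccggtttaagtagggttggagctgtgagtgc
Fgb: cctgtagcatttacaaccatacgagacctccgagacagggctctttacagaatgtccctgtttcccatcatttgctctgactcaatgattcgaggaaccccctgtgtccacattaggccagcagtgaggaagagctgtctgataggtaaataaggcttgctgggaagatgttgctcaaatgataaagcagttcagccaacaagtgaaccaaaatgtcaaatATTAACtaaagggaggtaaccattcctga
The site nearest the start lies 26 bases before it in Afp, 37 in Fga and 23 in Fgb. A match of letters is a description and not a bound site. Fga was at 102, 0.565 and 0.559 CPM in WT and at 58.8, 29.3 and 100 CPM in KO, and Fgb at 69.7, 0.298 and 0.466 CPM in WT and at 39.1, 22.8 and 68.6 CPM in KO, so both came close to the limit of detection in WT replicates 2 and 3.

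Spongiotrophoblast genes were far higher in KO replicate 2 than in the other libraries. The summed spongiotrophoblast and glycogen cell list was at 2795, 3244 and 3520 CPM in WT and at 2260, 19330 and 1771 CPM in KO. Tpbpa, the defining gene of spongiotrophoblast, was at 11250 CPM in KO replicate 2 and at 722 to 1949 CPM in the others. Prl8a8, a prolactin-family gene of the same layer, was at 228 CPM against 4.53 to 11.9 CPM. Prl7a2 was at 2002 CPM against 19.8 to 95.7 CPM. All of these were highest in KO replicate 2 by a wide gap. Prl6a1 was the member of the list with an unadjusted p under 0.05, at 120, 145 and 133 CPM in WT and at 91.0, 94.6 and 119 CPM in KO, a log2 difference of -0.39 (95% interval -0.71 to -0.07) that did not pass adjustment.

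The same library differed in several other tissues. Pregnancy-specific glycoprotein genes held 0.738% of its TPM against 0.118% to 0.196% in the others, and globin genes 1.94% against 0.714% to 1.16%. Its NK effector sum was lowest, at 4664 CPM against 6681 to 10720 CPM. Bmp2, a signal of the decidual reaction, was at 8.19 CPM against 47.9 to 81.9 CPM, and Il15ra, which presents interleukin 15 to dNK cells, at 0.845 CPM against 6.71 to 10.95 CPM. Of the 32 lists with a gene tested, KO replicate 2 was lowest in 17 and highest in 6. Each library was also placed on its own axis, from the mean of the other gd10.5 libraries (0) to the mean of gd14.5 (1). KO replicate 2 stood at 0.502. The other 5 libraries stood between -0.207 and 0.0990, on axes whose 0 included KO replicate 2. KO replicate 2 was also the one library with more than traces of Y-linked reads, at 78.8 CPM summed over Ddx3y, Uty, Kdm5d and Eif2s3y, with the others at 0.348 CPM or less.

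**Figure D2:**
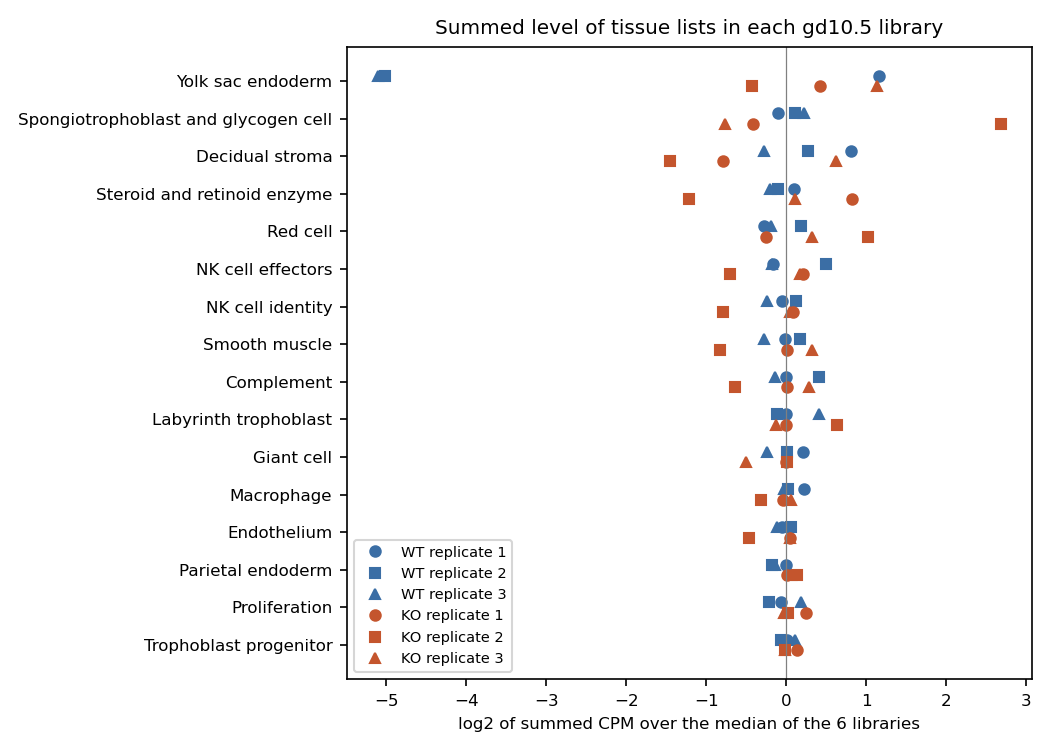
Summed CPM of 16 gene lists in each of the 6 libraries, as the log2 difference from the list's median library. Yolk sac endoderm spans the widest range and is low in WT replicates 2 and 3, and spongiotrophoblast is highest in KO replicate 2.

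A principal component analysis put these tissues first. The first component held 45.4% of the variance, and genotype accounted for 1.09% of that component. KO replicate 2 stood at 57.7 and KO replicate 3 at -43.8, so KO libraries occupied both ends. On the negative side weighed the carbonic anhydrase gene Car7 together with Apob, Apom and Cubn of the yolk sac list, and on the positive side Ctsm, Prl7a2 and Psg17, genes of placental trophoblast. The second component held 31.1%, of which genotype accounted for 43.8%. Afp and Apoa1 led its negative side. C1qtnf6 itself led its positive side, at a weight of 0.0836, with Gm33228 next at 0.0372. Over all genes, 18.2% of the variance of log2 CPM lay between genotypes, where an even split over the 5 degrees of freedom among 6 libraries gives 20%.

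The 12 genes with the widest spread within groups, among those with a mean of at least 10 CPM, were all low in WT replicates 2 and 3. Car7 was at 22.2, 0.714 and 0.466 CPM in WT and at 35.7, 0.760 and 41.4 CPM in KO. Unlike Afp, it was as low in KO replicate 2 as in WT replicates 2 and 3. Spp2, Plg and Serpina1b, which encode secreted plasma proteins, followed Afp instead, with KO replicate 2 at 15.2, 5.32 and 9.63 CPM respectively. Relative to the rich libraries, the signal of KO replicate 2 was therefore uneven over these genes.

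dNK cell genes were abundant and showed no genotype difference that passed. The 9 effector genes, granzymes, perforin (Prf1) and Fcrl6, summed to 6724, 10720 and 6681 CPM in WT and to 8763, 4664 and 8520 CPM in KO. Gzmd, a granzyme of uterine NK cells, was at 1478, 2480 and 1527 CPM in WT and at 1966, 1153 and 1899 CPM in KO. Prf1, which opens pores in target cells, was at 439, 625 and 413 CPM in WT and at 617, 247 and 541 CPM in KO. In both genes the highest library was WT replicate 2 and the lowest KO replicate 2, and the groups overlapped. All 9 differences were below 0, with a median of -0.12, and 0 had an unadjusted p under 0.05.

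The sign of that difference turned when KO replicate 2 was left out. Without KO replicate 2, all 9 effector differences were above 0, with a median of 0.21, and still 0 genes of the list were DEGs. The 16 NK identity genes tested went from 10 lower with a median of -0.06 to 15 higher with a median of 0.26. Their median was also above 0 without WT replicate 1, at 0.07 with 9 higher, and with the yolk sac level as a covariate all 16 were lower, with a median of -0.25. The effector genes kept 9 lower without WT replicate 1 and had 6 lower under that covariate. Among the identity genes, Eomes, a transcription factor of NK cells, was at 38.1, 40.6 and 31.8 CPM in WT and at 45.9, 14.3 and 44.0 CPM in KO. Ncr1, the receptor NKp46, was at 0.253 CPM in KO replicate 2 against 2.24 to 5.31 CPM in the other libraries. The interleukin 15 axis differed little either way, with medians of 0.12 and 0.13.

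Complement genes, the pathway the study has in view, were expressed at modest levels. Of the 26 listed, 23 were tested, 17 had a lower KO mean and 6 a higher one, and 0 had an unadjusted p under 0.05. Serping1, the C1 inhibitor, was at 648, 857 and 621 CPM in WT and at 645, 433 and 806 CPM in KO. Masp1, a protease of the lectin pathway, was at 546, 751 and 501 CPM in WT and at 599, 293 and 660 CPM in KO. KO replicate 2 was lowest in both genes, and without it the median of the 23 genes went from -0.17 to 0.00.

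The central complement components had intervals of unequal width. C3, on which all pathways converge, was at 13.9, 29.1 and 11.6 CPM in WT and at 12.9, 10.6 and 33.5 CPM in KO, with a log2 difference of 0.06 (95% interval -1.21 to 1.33). Hc, which encodes C5, had -0.21 (95% interval -0.76 to 0.35). The C1q chain genes C1qa, C1qb and C1qc had -0.35, -0.27 and -0.17, and Cd46, a membrane regulator, had every KO library below WT, at 1.77 to 2.49 CPM against 2.71 to 3.22 CPM, with an interval from -0.97 to 0.06. Cfi, which cleaves C3b, was at 0.179 and 0.233 CPM in WT replicates 2 and 3 and at 5.87 CPM or more in the others, as the yolk sac genes were.

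Genes of other immune cells summed to low or moderate levels. Macrophage genes summed to 696 to 827 CPM in WT and to 571 to 739 CPM in KO, and 9 of the 11 tested had a lower KO mean (median -0.15), against 5 of 11 without KO replicate 2 (median 0.03). Csf1r, the receptor for the macrophage growth factor CSF1, was at 571, 419 and 472 CPM in WT and at 439, 365 and 449 CPM in KO. It overlapped between groups, with a log2 difference of -0.22 (95% interval -0.59 to 0.15). Csf1r made up most of the macrophage sum in every library. Among the other members, Adgre1, C1qa, C1qb and C1qc were each at 12.6 CPM or less, on the scale of the 24-library fit. T cell genes summed to 7.69 to 15.7 CPM over all 10 listed, of which 4 passed the filter. B cell genes summed to 8.81 to 15.4 CPM and neutrophil genes to 67.6 to 188 CPM. The T cell and neutrophil sums were lowest in KO replicate 2. Cd79b, a chain of the B cell receptor, had an unadjusted p under 0.05, with 0.559 to 1.01 CPM in WT and 0.415 to 0.542 CPM in KO, and did not pass adjustment.

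Decidual stroma and endothelium likewise turned with KO replicate 2. Of the 13 decidual genes, 9 had a lower KO mean (median -0.14), and without KO replicate 2, 9 had a higher one (median 0.12). Hand2, a transcription factor of progesterone-responsive stroma, was at 181, 197 and 128 CPM in WT and at 162, 57.3 and 201 CPM in KO. Pgr, the progesterone receptor, was at 127, 172 and 117 CPM in WT and at 133, 88.3 and 202 CPM in KO. The 10 endothelial genes, Cdh5 and Pecam1 among them, went from 6 lower (median -0.06) to 10 higher (median 0.13), and all 10 of their intervals in the 6 libraries lay within 1 log2 unit of 0 on either side.

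In some lists most intervals lay within 1 log2 unit of 0, as 75.6% did over all genes tested. The median interval reached 0.35 to either side for proliferation and 0.428 for hypoxia and glycolysis, against 0.469 over all genes. For the other lists in this paragraph it reached 0.472 to 0.553, so those were not narrower than usual. The 14 proliferation genes had a median difference of 0.13, 13 of them higher in KO, and all 14 intervals within 1 log2 unit. Mki67, the marker of cycling cells, was at 184, 172 and 230 CPM in WT and at 224, 218 and 197 CPM in KO. The 11 genes of major histocompatibility complex class I and 8 immediate early genes also had every interval within 1 log2 unit, as did 12 of 13 hypoxia and glycolysis genes and 11 of 13 genes of cell stress and death. Of the 12 interferon response genes, 10 had a lower KO mean with the 6 libraries and 11 without KO replicate 2, with medians of -0.14 and -0.13, and 0 had an unadjusted p under 0.05. Trophoblast progenitor genes, such as Cdx2 and Elf5, summed to 684 to 769 CPM in WT and to 705 to 785 CPM in KO.

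Genes of parietal endoderm, which lays down the basement membrane of the yolk sac cavity, all had a higher KO mean. The 9 genes had a median difference of 0.16, and Col4a1, a collagen IV chain, was at 1662, 1382 and 1362 CPM in WT and at 1632, 1805 and 1731 CPM in KO. The groups overlapped in each of the 9, and 0 had an unadjusted p under 0.05. The 12 mitochondrial genes all had a lower KO mean, with a median of -0.11, and mt-Nd1 was at 3316, 3363 and 3303 CPM in WT and at 3097, 3112 and 2977 CPM in KO. Its groups did not overlap, yet its interval ran from -0.41 to 0.17.

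Labyrinth, giant cell and steroid genes varied widely within groups. The labyrinth list had 7 of 10 genes with a higher KO mean (median 0.14) and 2 of 10 without KO replicate 2 (median -0.37). Gcm1, the transcription factor that starts labyrinth branching, was at 6.05, 6.63 and 9.97 CPM in WT and at 5.89, 22.0 and 4.72 CPM in KO. Flt1, a decoy and receptor for VEGF that spongiotrophoblast makes in quantity, was at 214, 201 and 287 CPM in WT and at 209, 1102 and 157 CPM in KO. Both were highest in KO replicate 2 and lowest in KO replicate 3. The median 95% interval over the 12 giant cell genes reached 1.08 to either side. Prl3d2 and Prl3d3, close copies of Prl3d1, were highest in KO replicate 1 at 175 and 37.2 CPM and lowest in KO replicate 2 at 4.35 and 1.90 CPM. Star, which carries cholesterol into mitochondria for steroid synthesis, was at 788, 521 and 597 CPM in WT and at 1284, 199 and 729 CPM in KO. Hsd3b6, a later enzyme of that pathway, was at 235, 160 and 179 CPM in WT and at 652, 56.5 and 258 CPM in KO. Both genes were highest in KO replicate 1 and lowest in KO replicate 2, as Prl3d1 was.

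Over all genes tested, 140 (0.801%) had an unadjusted p under 0.05, 59 higher (0.338%) and 81 lower (0.463%) in KO. An even spread of p-values would put 5% there. Under 0.01 there were 15 genes, and after C1qtnf6 the smallest p was 6.81e-04 with an adjusted p of 1 in edgeR's quasi-likelihood test. The groups did not overlap in 740 genes (4.23%), with KO above in 338 (1.93%) and below in 402 (2.30%). Genes that leaned with genotype were therefore named by rule, as the 12 in each direction with the smallest p among non-overlapping genes of at least 1 CPM. Their values describe and do not test, and each had an adjusted p of 1.

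**Figure D3:**
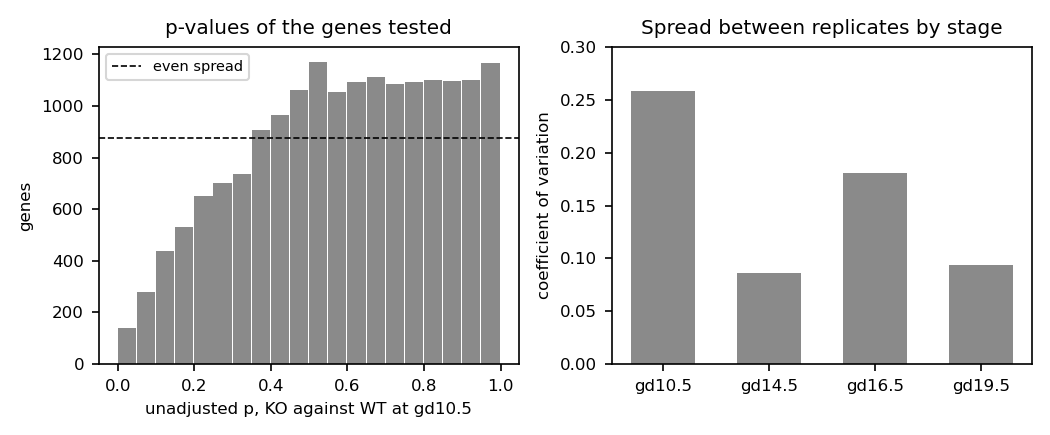
Left, number of genes by unadjusted p of KO against WT at gd10.5, with a line for an even spread. Right, common biological coefficient of variation at each of the 4 stages, where gd10.5 has the tallest bar at 0.259.

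Acot10, a mitochondrial acyl-CoA thioesterase, leaned most clearly to KO. It was at 2.02, 3.36 and 1.86 CPM in WT and at 6.48, 6.12 and 6.85 CPM in KO, a log2 difference of 1.41 (95% interval 0.79 to 2.04). The KO libraries were close together, KO replicate 2 included. The gene lies within the spans of Cdh12 and Gm49685 on the other strand, and the counting does not show which strand its reads came from. DESeq2 on the same 6 libraries called Acot10 at an adjusted p of 0.0214, while edgeR did not.

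Other genes leaned to KO by less. Eln, which encodes elastin, was at 1.24, 1.13 and 1.21 CPM in WT and at 3.15, 1.82 and 3.10 CPM in KO. Prss35, a serine protease-like gene, was at 34.2, 52.1 and 32.9 CPM in WT and at 80.5, 62.5 and 68.2 CPM in KO, with a log2 difference of 0.82 (95% interval 0.34 to 1.31). Mid1, a microtubule-bound ubiquitin ligase gene on the X chromosome, was at 3.88, 3.60 and 3.17 CPM in WT and at 7.06, 4.94 and 8.01 CPM in KO. In each of these the KO libraries lay above WT, and in Eln and Mid1 KO replicate 2 was the nearest to WT. G530011O06Rik, which leaned the same way by 1.25, lies within the span of Mid1 on the other strand. The counting ignored strand, so the pair may not be independent.

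Among steadier genes the differences were small. Mest, an imprinted gene expressed from the paternal copy, was at 171, 160 and 176 CPM in WT and at 210, 190 and 203 CPM in KO, a log2 difference of 0.25. Socs6, a suppressor of cytokine signalling, was at 29.0 to 30.3 CPM in WT and at 34.7 to 36.3 CPM in KO, a log2 difference of 0.26. Prl8a6, a prolactin-family gene, leaned to KO by 1.40, with 52.8 CPM in KO replicate 2 and 12.9 CPM in KO replicate 3 against 10.4 to 11.7 CPM in WT. The chloride channel gene Cftr, the axonemal dynein gene Dnaic1, the protease gene Capn10 and Bex1 made up the rest, with differences from 0.32 to 1.06.

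Ccn1, Il1rn and Dnase1l3 were among the 12 genes that leaned lower in KO. Ccn1, a matricellular protein gene of vessels and stroma, was at 286, 227 and 224 CPM in WT and at 142, 149 and 185 CPM in KO, a log2 difference of -0.63 (95% interval -0.99 to -0.27). Il1rn, the antagonist of the interleukin 1 receptor, was at 21.6, 15.6 and 13.1 CPM in WT and at 9.38, 7.81 and 11.2 CPM in KO. Dnase1l3, a secreted nuclease gene, was at 123, 95.3 and 101 CPM in WT and at 78.6, 74.3 and 81.4 CPM in KO. The gap between the groups was narrow in Il1rn and Dnase1l3, and WT replicate 1 was the highest library in all 3.

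Doxl1, a diamine oxidase-like gene, differed by more. It was at 479, 269 and 334 CPM in WT and at 161, 107 and 243 CPM in KO, a log2 difference of -1.08 (95% interval -1.90 to -0.27), with KO replicate 3 close to WT replicate 2. Gcnt1, an enzyme that branches O-linked glycans, was at 55.5 to 59.3 CPM in WT and at 41.5 to 49.1 CPM in KO. Adgrd1, an adhesion G protein-coupled receptor gene, was at 24.6 to 31.7 CPM in WT and at 18.4 to 22.5 CPM in KO. Cnbd2, Gm15930, Wdr66, Gm29237, Spaca6 and Olfr545 were the others, at 17.2 CPM or less in every library.

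**Figure D4:**
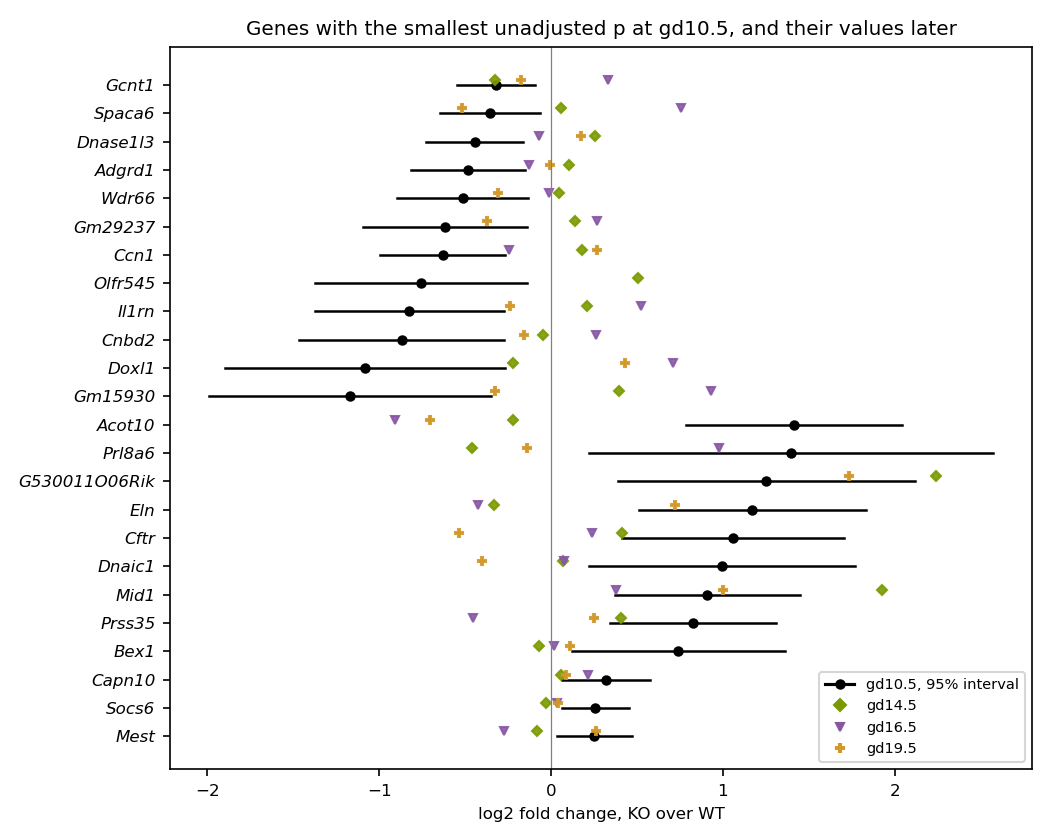
Log2 fold change, KO minus WT, of the 24 genes named by the rule, with 95% intervals at gd10.5 and coloured markers for the same genes at gd14.5, gd16.5 and gd19.5. The gd10.5 intervals exclude 0 because the rule chose them, and the later markers fall on both sides of 0.

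At the later stages, which share no library with gd10.5, the leaning genes fell on either side. Of the 12 higher genes, 6 of 12 had the same sign at gd14.5, 7 of 11 tested at gd16.5 and 8 of 12 at gd19.5. Of the 12 lower genes, 3 of 12, 4 of 11 and 8 of 11 did. Over all genes tested at those stages, 48.3% to 51.7% had either sign. With an unadjusted p under 0.05 as well, the same sign was found for 2, 1 and 3 of the higher genes, against 3.3%, 5.49% and 6.46% of all genes, and for 1, 0 and 2 of the lower genes, against 3.48%, 5.6% and 7.08%. Mid1 had a log2 fold change of 1.92 at gd14.5 with an adjusted p of 0.00220 in edgeR's quasi-likelihood test, and G530011O06Rik, inside Mid1 on the other strand, had 2.24 with an adjusted p of 0.517. Ccn1 had a log2 difference of 0.18 at gd14.5 and of -0.25 at gd16.5, neither past adjustment.

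Some genes were lower in KO replicates 1 and 3 while KO replicate 2 was far higher. Without that library, 6 genes (0.0336% of 17835) were DEGs and 695 (3.9%) had an unadjusted p under 0.05, while groups did not overlap in 3362 (18.9%). Groups separate more readily by chance when a library is dropped. The share without overlap was 4.23% with all 6 libraries and 8.17% to 16.2% with any other library left out, so the rise does not show a genotype difference. The DEGs were all lower in KO, namely C1qtnf6, Cts3, Gm5155, Psg18, Psg27 and Taf7l, a set known only after the library had been seen to stand apart. Psg27, a pregnancy-specific glycoprotein gene, was at 75.7, 67.9 and 67.9 CPM in WT and at 20.5, 1152 and 25.0 CPM in KO. Cts3, a placental cathepsin, was at 44.9, 47.2 and 43.3 CPM in WT and at 12.5, 671 and 14.8 CPM in KO. KO replicates 1 and 3 were below WT in both, while KO replicate 2 was far above. Gm5155, a predicted gene, was at 44.3, 52.5 and 52.1 CPM in WT and at 11.3, 809 and 14.9 CPM in KO.

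The direction of these genes turned with that library. The log2 difference of Psg27 was -1.63 without KO replicate 2, with an adjusted p of 0.0322 in edgeR's quasi-likelihood test, and 2.50 with it. Cts3 went from 2.37 to -1.72 and Taf7l, a testis- and trophoblast-expressed relative of a general transcription factor, from 1.79 to -1.58. With the yolk sac level added as a covariate to the 5 libraries, C1qtnf6 was the 1 DEG, while the log2 differences of the other 5 genes were -1.79 to -1.49 with adjusted p-values of 0.0976 to 0.130 in edgeR. Their sizes thus stayed near those without the covariate, in a fit that leaves fewer degrees of freedom. Genes of the Psg and placental cathepsin families are close copies, and reads that map to several of them were left out of the counts. Without KO replicate 2, the spongiotrophoblast list also turned from 12 of 15 genes higher (median 0.54) to 10 of 15 lower (median -0.22), and red cell genes from 12 of 12 higher (median 0.43) to 9 of 12 (median 0.07).

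**Figure D5:**
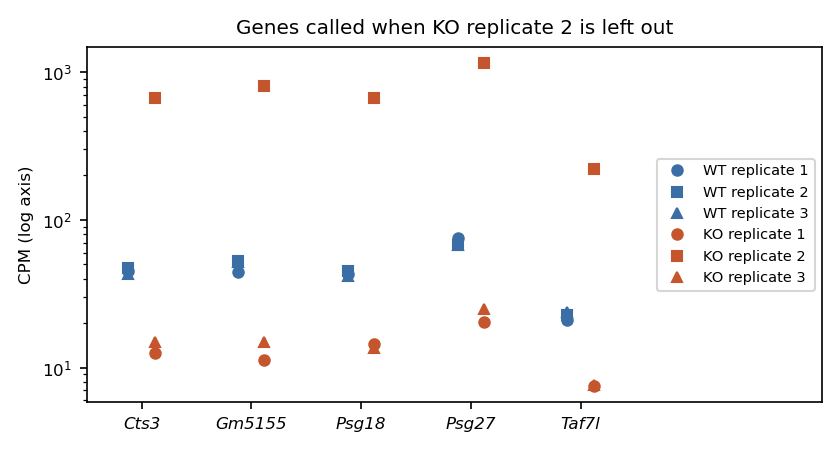
CPM on a log axis of Cts3, Gm5155, Psg18, Psg27 and Taf7l in the 6 libraries. KO replicates 1 and 3 lie below the WT points and KO replicate 2 far above them in each gene.

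The spread between replicates was widest at this stage. The common biological coefficient of variation was 0.259 at gd10.5, against 0.0866, 0.181 and 0.0941 at gd14.5, gd16.5 and gd19.5, each from 6 libraries. Without KO replicate 2 the gd10.5 value was 0.194, near that of gd16.5, and with any other library left out it was 0.256 to 0.277. The median 95% interval of a log2 fold change reached 0.47 to either side, against 0.24, 0.33 and 0.26. At gd10.5, 13210 genes (75.6%) had an interval wholly within 1 log2 unit of 0, and for 2348 (13.4%) the interval reached more than 1 to either side of its own centre. Genes with an unadjusted p under 0.05 were 0.801% here and 6.78%, 11.1% and 13.5% at the later stages. The lack of further DEGs at gd10.5 is thus a bound of this width and does not show that the groups were equal.

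Whether the KO effect at gd10.5 differed from the mean effect of the later stages was tested in a fit of all 24 libraries. Of 19299 genes, 0 were called in edgeR's quasi-likelihood test, and 793 (4.11%) had an unadjusted p under 0.05, while DESeq2 called 1, the Y-linked gene Uty, whose reads at gd10.5 came almost wholly from KO replicate 2. Without WT replicate 1 the count was 63, all with a higher KO effect at gd10.5, without KO replicate 2 it was 25 and without KO replicate 3 it was 5.

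Stage, by contrast, separated gd10.5 from the later interface in 5071 genes (26.3%), 2621 higher (13.6%) and 2450 lower (12.7%). All 9 NK effector genes were higher at gd10.5, with a median log2 difference of 3.72, and so were 14 of 16 NK identity genes. Gzmd was at 1040 to 2251 CPM in the 6 gd10.5 libraries and at 35.2 to 585 CPM in the 18 later ones, on the scale of the 24-library fit. All 14 proliferation genes were higher, with a median of 3.04, and Mki67 was at 157 to 209 CPM against 9.26 to 66.6 CPM. No later library reached the gd10.5 range in either gene.

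Single hormone and blood genes marked the stage as well. Prl3d1 was at 151 to 2982 CPM at gd10.5 and at 14.45 to 68.6 CPM later, a log2 difference of 5.67. Hbb-bh1, an embryonic beta-like globin of yolk sac red cells, was at 232 to 519 CPM and at 0.00 to 6.33 CPM later, a log2 difference of 7.75. Their lists were mixed. Of 12 giant cell genes, 6 were higher at gd10.5 and 4 lower, and of 12 red cell genes, 5 were higher and 5 lower. The spongiotrophoblast list had 9 of 15 genes lower at gd10.5, though 4 with DESeq2, and Prl8a8 was at 4.05 to 206 CPM against 1883 to 6655 CPM later. The top of that gd10.5 range was KO replicate 2, and the later range began far above it. Decidual stroma had 9 of 13 genes higher, yolk sac endoderm 11 of 17 and steroid enzymes 7 of 10, while 6 of 11 smooth muscle genes were lower. The yolk sac count compares means over libraries that overlapped, since Afp was at 6.67 to 2213 CPM at gd10.5 and at 39.0 to 14890 CPM at gd16.5, and Apob at 2.97 to 1033 CPM and at 23.3 to 3738 CPM.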

How the data were processed

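Bulk mRNA-seq of the gd10.5 MFI was analysed, with the 18 later libraries for comparison between stages. The authors deposited raw counts for 55401 genes in 24 libraries, with no normalization. The submitters' processing notes name Trim Galore 0.6.4, STAR 2.7.3a, featureCounts of Subread 2.0.0 and GRCm38, and the study's methods give default counting, which ignores strand and drops multi-mapping reads. Close paralogs are thus undercounted, and for genes that overlap on opposite strands the strand a read came from is not known. Depth and detection limits are given in the report and cover counting error alone.

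Libraries were grouped by genotype and stage in their descriptions, whose replicate numbers were used (titles number the KO libraries 3, 4 and 5). In R 4.3.3, edgeR 4.0.16 compared KO with WT by its quasi-likelihood test. Genes passed filterByExpr at a minimum of 10 counts (15 in total), scaling was by TMM, and p-values were adjusted by Benjamini-Hochberg over all genes tested. CPM values refer to the scaled library size, with a prior of 2 counts on the log2 scale and of 0.5 in the permutation test. The 24-library fit tested gd10.5 against the later groups and the genotype effect between stages. DESeq2 1.42.0 and voom of limma 3.58.1 were alternatives, beside other filters, scalings, covariates, the replicate block and each library left out. The covariates from the spongiotrophoblast level, alone or with yolk sac, and the yolk sac covariate without KO replicate 2 were chosen after seeing the data. Promoters were searched in Python 3.11.15 and figures drawn with matplotlib 3.10.9. The fits were tested on simulated data.

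The 34 gene lists (374 entries, 372 matched, 362 distinct genes) and the comparison were chosen with earlier results of these data known. Genes were named by rule, namely C1qtnf6 and neighbours within 200 kb, the 15 highest per length, up to 12 leaning each way, the 12 with the widest spread at a mean of at least 10 CPM, and list members. Genes called without KO replicate 2, in DESeq2 or by component loading were named after their values were seen. Set tests and resampling were not used.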

Additional observations from a re-analysis of the deposited data

Results flagged for a closer look

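Genes that leaned with genotype at gd10.5 and had every library on the opposite side at a later stage were picked out, from the log2 ratio of mean KO to mean WT CPM scaled over all genes of the 24 libraries, and the difference between those stage pairs was not tested pair by pair. Among genes higher in KO at gd10.5, Acot10 had a ratio of 1.43 there and of -0.23 at gd14.5 and -0.67 at gd19.5. The ratio went from 1.18 to -0.45 at gd16.5 in Eln, from 0.83 to -0.49 at gd16.5 in Prss35, from 1.01 to -0.37 at gd19.5 in Dnaic1, from 1.41 to -0.47 at gd14.5 in Prl8a6, and from 0.26 to -0.3 at gd16.5 in Mest.

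Among genes lower in KO at gd10.5, Ccn1 went from -0.62 to 0.17 at gd14.5, and Dnase1l3 went from -0.44 to 0.25 at the same stage. Gm15930 went from -1.16 to 0.91 at gd16.5, and Gm29237 from -0.61 to 0.24 at gd16.5. Doxl1 went from -1.07 to 0.46 at gd19.5, and Olfr545 from -0.75 to 0.51 at gd14.5. On CPM scaled over the genes that passed the filter, the groups overlapped for Acot10 at gd14.5, with WT down to 6.19 and KO up to 6.24 CPM, and for Doxl1 at gd19.5, with WT up to 421 and KO down to 420.9 CPM. These genes were chosen for their pattern, so no p-value is given for it.

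Y-linked reads lay outside the comparisons, since the 4 genes did not pass the expression filter at gd10.5. They reached 78.8 CPM in KO replicate 2, from 1210 reads of Ddx3y, 307 of Uty, 234 of Kdm5d and 115 of Eif2s3y. The other 5 libraries had 0 to 4 reads of each gene. Their part in the results was not tested beyond the Y-linked covariate given with the alternatives.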

How the results depend on the processing

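C1qtnf6 was a DEG under every setting, with log2 fold changes from -7.50 to -7.26. One further gene, Acot10, was called by DESeq2 on the 6 libraries and another, Uty, by DESeq2 on 24 libraries, 2 DEGs in each case, and leaving out 1 library gave 1 to 6 DEGs. Genes with an unadjusted p under 0.05 (140, 0.801%) came to 410 (1.23%) without an expression filter, to 766 (3.97%) in the fit of 24 libraries and to 828 (2.09%) with DESeq2 on 24. The count was 485 (2.77%) with voom quality weights. With smooth muscle, Y-linked or first principal component covariates it was 446 (2.55%), 558 (3.19%) and 618 (3.54%). With spongiotrophoblast it was 410 (2.35%), with yolk sac added 349 (2%), and with yolk sac but without KO replicate 2 it was 379 (2.13%). Leaving out 1 library gave 96 to 695. Groups did not overlap in 1612 genes (4.85%) without a filter, against 4.23% in the main fit. With a library left out the count was 1458 to 3362 (8.17% to 18.9%), where smaller groups separate more readily by chance. Settings that change only the test give no such count. The coefficient of variation was 0.194 to 0.277 with a library left out, lowest without KO replicate 2. Stage DEGs (5071) were 2710 with at least 10 counts in every library, 14427 without a fold threshold and 4984 to 5734 with a library left out. The stage-by-genotype count (0) was 1 with DESeq2 on 24 libraries and 0 to 63 with a library left out. The causes were not tested. For the 24 leaning genes, 575 of 576 values kept side and direction and 1, Acot10, became called. These genes were chosen because the groups did not overlap in the same 6 libraries. Their direction was thus largely fixed by the rule, and the count says little about how firm it is. For the lists, 82 of 744 medians moved by more than the SD of the log2 differences between the genes of the list. That limit is loose, and a median can change sign within it. The spongiotrophoblast median did so, from 0.54 to -0.22 without KO replicate 2. C1qtnf6, the 1 gene called in the main fit, kept its direction. Cts3, Gm5155, Psg18, Psg27 and Taf7l, called only without KO replicate 2, had the opposite sign with it.

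With the replicate number as a block, 62 genes had an unadjusted p under 0.05 and the 1 DEG was C1qtnf6 (-7.43, adjusted p 0.00426 in edgeR). Deviations of same-numbered libraries correlated at 0.043, -0.0242 and -0.522, so the numbers do not pair the libraries.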
